A study of Mus musculus with 4 samples.

Results

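Platelet, macrophage and blood progenitor genes were examined in mouse embryos at E9.5, in RNA of the posterior part from Jmjd3-/- and wild-type samples. The set holds 10 genes of the 18220 that the arrays could name. Pf4, Ppbp and Itga2b belong to platelets and their precursors, Csf1r, Cx3cr1, Tyrobp, Fcer1g and Ptprc to macrophages or white blood cells at large, and Runx1 and Kit to blood progenitors. The genes were chosen by their known roles with earlier results of the same arrays in view, and so selected on the log2 difference between the genotypes and on whether a probe rose above background. Their differences between the genotypes are therefore a description and carry no test. All probes whose accession mapped to a listed gene were used, which gave 15 probes for 9 genes, and no probe was matched to Kit. Of these 9 genes, 7 were tested in the fit over all genes because in at least 1 genotype their brightest probe exceeded background on each array.

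The Jmjd3-/- group holds 2 RNA samples, numbered 1 and 9, from embryos lacking Jmjd3 on both alleles. The wild-type group holds 2 samples, numbered 3 and 4. In the text they are called mutants 1 and 9 and wild types 3 and 4. All came from intercrosses of heterozygous mice, and stage was set by time after mating and somite number. The labels give no strain and do not say whether a sample was 1 embryo or a pool, so the errors measure the spread between these samples, which may be technical. Jmjd3, now named Kdm6b, encodes a demethylase of histone H3, and the loss is not restricted to blood cells.

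In the embryo at this stage, blood arises in waves from the yolk sac, which makes primitive red cells, the first macrophages and the first megakaryocytes, and then from the endothelium of large vessels. Megakaryocytes shed platelets, which carry chemokines in granules and adhesion receptors on the surface. Macrophages depend on the receptor encoded by Csf1r, and Runx1 is a transcription factor that blood stem cells need in order to emerge from endothelium.

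The 250 bases before the annotated start of 4 members are shown because these genes share a direction in the arrays below and lie in different places in the genome, except for Pf4 and Ppbp, which are neighbours on chromosome 5. The sequences are from RefSeq, build GRCm38.p6, and run 5′ to 3′ on the strand of the gene. They cover chr5:90772185-90772434 on the plus strand for Pf4, chr5:90768268-90768517 on the plus strand for Ppbp, chr11:102469884-102470133 on the minus strand for Itga2b and chr1:171234350-171234599 on the minus strand for Fcer1g. Capitals mark matches, on either strand, to CAGGAA or CCGGAA, written here as the ETS letters, or to GAGGAA, the core bound by PU.1. ETS factors such as Fli1 act in megakaryocytes, and PU.1, an ETS factor itself, acts in macrophages.
Pf4: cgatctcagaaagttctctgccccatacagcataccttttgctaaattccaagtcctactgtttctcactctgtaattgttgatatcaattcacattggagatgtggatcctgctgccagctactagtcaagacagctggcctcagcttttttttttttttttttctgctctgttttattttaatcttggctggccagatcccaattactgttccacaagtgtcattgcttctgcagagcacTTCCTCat
Ppbp: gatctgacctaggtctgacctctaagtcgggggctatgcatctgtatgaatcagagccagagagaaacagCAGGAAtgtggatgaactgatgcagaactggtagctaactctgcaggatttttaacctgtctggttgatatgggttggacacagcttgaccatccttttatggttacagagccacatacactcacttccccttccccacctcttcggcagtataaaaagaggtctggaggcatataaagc
Itga2b: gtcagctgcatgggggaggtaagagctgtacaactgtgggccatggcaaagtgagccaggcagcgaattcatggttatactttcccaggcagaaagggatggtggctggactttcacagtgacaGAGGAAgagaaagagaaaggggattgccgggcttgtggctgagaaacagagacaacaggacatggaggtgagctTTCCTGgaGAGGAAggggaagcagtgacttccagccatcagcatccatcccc
Fcer1g: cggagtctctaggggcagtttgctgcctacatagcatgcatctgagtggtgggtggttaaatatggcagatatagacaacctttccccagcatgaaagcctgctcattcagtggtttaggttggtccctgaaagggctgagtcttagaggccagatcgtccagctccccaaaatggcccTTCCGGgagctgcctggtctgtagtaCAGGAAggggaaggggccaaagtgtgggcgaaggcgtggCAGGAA

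Pf4 held 1 match to the PU.1 letters, from 8 to 3 bases before the start and on the strand opposite to the gene. Ppbp held 1 ETS match, 180 to 175 bases before its start. Itga2b held 2 PU.1 matches and 1 ETS match, and Fcer1g held 3 ETS matches. The counts cover 11 start sites of 8 members, counting Cx3cr1, Ptprc, Runx1 and Kit. ETS matches were found at 8 of the 11 start sites, against 35.1% of all 32851 promoter windows of this length, and PU.1 matches at 6 of 11, against 23.3%. The windows of the 2 starts of Kit overlap, as do those of the 2 starts of Ptprc, so these sites are not independent. The GATA letters AGATAA or TGATAA occurred only at Ptprc among the 8 members, against 16.6% of all windows, and the RUNX letters TGTGGT or TGCGGT only at Cx3cr1, against 18.6%. Tyrobp had no entry among the promoters, and Csf1r was left out of these counts and is not shown. A match is a description of the letters and not a measured binding site.

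**Figure D1:**
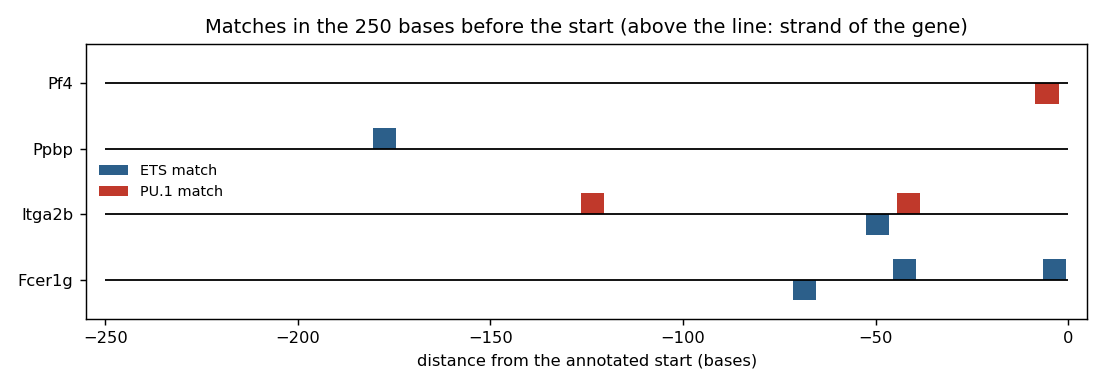
Position of each match to the ETS letters (blue) and the PU.1 letters (red) in the 250 bases before the annotated start of Pf4, Ppbp, Itga2b and Fcer1g. The horizontal axis is the distance from the start in bases; blocks above a line lie on the strand of the gene and blocks below it on the opposite strand. Pf4 and Ppbp hold 1 match each, and Itga2b and Fcer1g hold 3 each.

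Each sample was labelled with Cy3 and hybridised to 1 Agilent array, with all 4 arrays on 1 slide. Levels are log2 processed signals minus the 75th percentile of the array, which lay between 578 and 627, and the number of arrays limits their precision. Between 59.8% and 63.0% of the probes exceeded background on each array, and saturation affected 0 spots. The Jmjd3-/- arrays lay at positions 1 and 4 of the slide and the wild-type arrays at 2 and 3, so position and genotype cannot be told apart. Kdm6b had processed signals of 770 and 622 in mutants 1 and 9 against 2648 and 2940 in wild types 3 and 4; whether its probe lies in the deleted stretch was not checked. Jmjd3-/- replicate 1 stood apart from the other arrays, with 706 to 806 genes more than 2-fold from a wild-type array, against 333 and 354 for replicate 9. At an adjusted p under 0.05 limma called 3 genes higher and 2 lower in Jmjd3-/- (0.0221% and 0.0147% of 13582), and no member was among these 5.

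The platelet genes Pf4 and Ppbp had much lower signals in both Jmjd3-/- samples, and Itga2b differed less. Pf4, the chemokine platelet factor 4 stored in platelet granules, had processed signals of 247 and 361 in mutants 1 and 9 and of 728 and 1531 in wild types 3 and 4. Its probe was well above background on all 4 arrays and the genotypes did not overlap. In normalised log2 units the levels were −1.29 and −0.68 in Jmjd3-/- and 0.28 and 1.29 in wild-type. The difference was −1.77 (SE 0.43, n = 2 per genotype), which puts the mutants at 29.4% of wild-type. The wild-type arrays themselves differed 2.01-fold at this gene, and the difference ranged from −2.27 without wild-type replicate 3 to −1.26 without wild-type replicate 4. In bulk samples such as these, fewer cells of a type and less RNA per cell cannot be told apart.

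Ppbp, the gene next to Pf4, encodes the precursor of several platelet chemokines. Both wild-type arrays, and neither Jmjd3-/- array, had its probe well above background. The wild-type signals were 38.4 and 55.9 in replicates 3 and 4, and the Jmjd3-/- signals were 3.16 and 5.95 in replicates 1 and 9. Against the lowest signal called above background on the Jmjd3-/- arrays, Ppbp was 3.27-fold lower in Jmjd3-/-. This ratio sets the wild-type mean against, on each array, the higher of that lowest signal and the gene's own signal. It is no strict lower limit, because some brighter probes were not called above background. Examples are the probe of Prtn3 at 17.3 on mutant 1 and that of Gp6 at 16.9 on mutant 9. The fitted difference of Ppbp, −3.36 (SE 0.40), is no bound either. With another background correction (normexp, with an offset of 50 added to the signals) it was −0.65. Such an offset shrinks differences between dim signals, so part of this smaller size is set by the offset. The gene passed the filter through the wild-type arrays alone, where it was high, so some difference was built into its selection.

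The chemokine genes that flank this pair were not measurable. Cxcl5, next to Ppbp, and Cxcl3, Cxcl1 and Cxcl2, on the other side of Pf4, were not well above background on any array, and Cxcl15 was so only on Jmjd3-/- replicate 1. Of the 5 flanking genes, 0 could be tested.

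Itga2b encodes the integrin αIIb chain (CD41), part of the fibrinogen receptor of platelets and an early marker of blood progenitors. Its levels were −3.14 and −3.03 in mutants 1 and 9 and −3.01 and −2.36 in wild types 3 and 4. Wild-type replicate 3 lay almost level with the Jmjd3-/- arrays, and only replicate 4 was clearly higher. The difference was −0.40 (SE 0.25), it was −0.08 without wild-type replicate 4, and it was −0.73 without wild-type replicate 3. Its size therefore rested on 1 wild-type array.

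The partner chain of the same receptor, integrin β3, is encoded by Itgb3, which is no member. Itgb3 signals were 113 and 168 in mutants 1 and 9 against 407 and 641 in wild types 3 and 4, without overlap. The difference was −1.84 (SE 0.32), larger in size than that of Itga2b, and did not pass over all genes (limma adjusted p = 0.326). Whether the 2 chains differ in response was not tested, and Itgb3 is also expressed outside platelets.

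**Figure D2:**
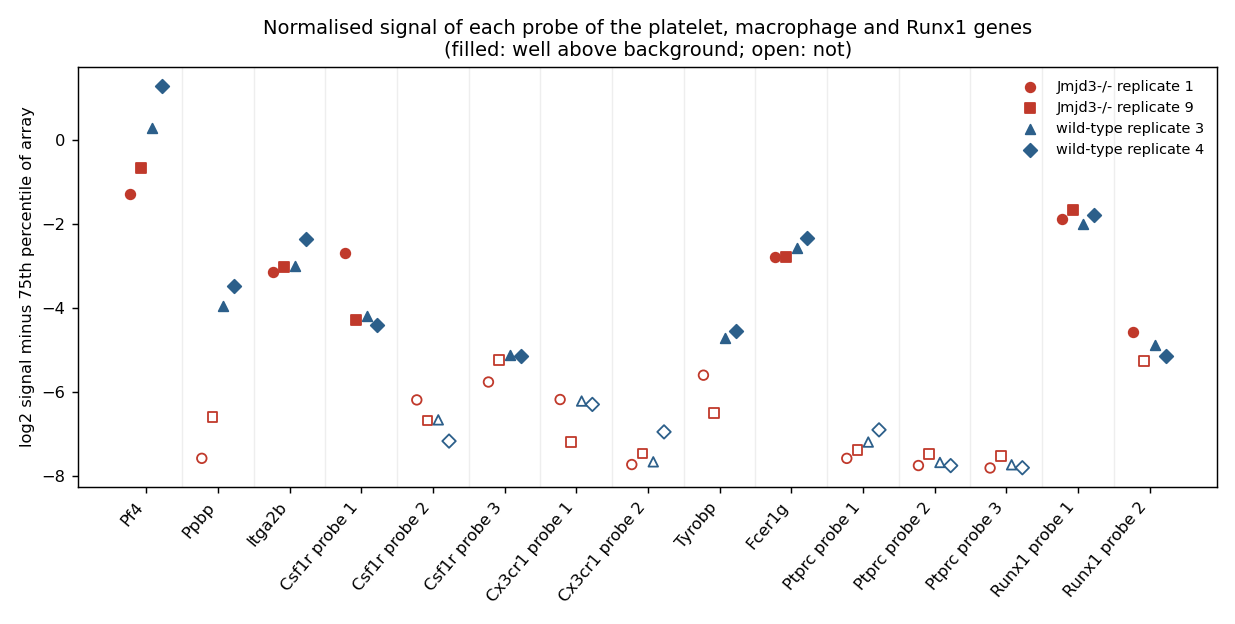
Normalised log2 signal (log2 processed signal minus the 75th percentile of the array, vertical axis) of all 15 probes of the 9 genes with a probe, with 1 point per array. Red marks Jmjd3-/- and blue wild-type; open points were not well above background. Pf4, Ppbp and Tyrobp show the 2 wild-type arrays above both Jmjd3-/- arrays, while the probes of Csf1r, Cx3cr1, Ptprc and Runx1 mostly overlap or lie below background.

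Among the macrophage genes, the adaptor genes Tyrobp and Fcer1g had lower values in both Jmjd3-/- samples. The probes of the receptor gene Csf1r disagreed. The receptor gene Cx3cr1 and the phosphatase gene Ptprc were not well above background on any array. Tyrobp encodes DAP12 and Fcer1g the common Fc receptor γ chain, both of which carry activating signals from surface receptors of myeloid cells. Tyrobp was well above background on both wild-type arrays, at levels of −4.72 and −4.54 in replicates 3 and 4, and on neither Jmjd3-/- array, at −5.60 and −6.50 in replicates 1 and 9. By the ratio used for Ppbp it was 1.75-fold lower in Jmjd3-/-, which again is no strict lower limit. Like Ppbp it passed the filter through the wild-type arrays alone. Its fitted difference was −1.42 (SE 0.34) and became −0.27 with normexp.

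Fcer1g was well above background on all 4 arrays, with signals of 87.6 and 84.2 in mutants 1 and 9 and 100.1 and 124.8 in wild types 3 and 4. The Jmjd3-/- arrays were nearly equal and both lay below the wild-type arrays. The difference was small, −0.33 (SE 0.12), or 79.8% of wild-type, and it was −0.15 with normexp. Fcer1g is also used by platelets, where its product couples to the collagen receptor encoded by Gp6. Gp6 itself was well above background in wild-type alone, but the genotypes overlapped, with signals of 14.2 and 16.9 in mutants 1 and 9, 16.3 in wild type 3 and 36.3 in wild type 4, the 1 array that stood higher.

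Csf1r encodes the receptor for the growth factors CSF1 and IL-34. Its 3 probes disagreed. The brightest had levels of −2.70 and −4.28 in mutants 1 and 9 and −4.18 and −4.39 in wild types 3 and 4, so that replicate 1 stood alone above 3 similar arrays. The difference of 0.80 (SE 0.58) was 0.01 without that replicate and 1.59 without replicate 9. The second probe was not well above background on any array. The third was well above background on both wild-type arrays, at −5.11 and −5.15, and on neither Jmjd3-/- array, at −5.76 and −5.24. By the ratio used for Ppbp it was 1.22-fold lower in Jmjd3-/-, which is no strict lower limit. No direction can be given for Csf1r from these probes.

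Cx3cr1, the receptor for the chemokine fractalkine, and Ptprc, the CD45 phosphatase of nearly all white blood cells, were not well above background on any array. Cx3cr1 had 2 probes, whose signals lay between 2.85 and 8.33, below the lowest signal of any probe called above background on the arrays, 12.6 to 14.8. One probe of Ptprc is spotted 10 times on each array, and 0 of these spots was well above background on any array. Its mean levels were −7.58 and −7.37 in mutants 1 and 9 and −7.19 and −6.90 in wild types 3 and 4, and single spots of wild-type replicate 4 ranged from 2.87 to 9.85. The other 2 probes of Ptprc lay at or under 3.24 on every array. For both genes a difference between the genotypes was not detectable at this signal.

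The weak signal held for macrophage genes beyond the members. Of 22 further macrophage and microglia genes with a probe, 13 were not well above background on any array, among them Spi1, Aif1, Mrc1, Trem2, Itgam and Timd4, and 4 were so on all 4 arrays. Of the 5 that could be tested, all had a negative difference, with a median of −0.35, and 0 passed (limma; 0 also at an unadjusted p under 0.05). Of all genes tested, 53.1% had a negative difference and 11.1% an unadjusted p under 0.05 in either direction, with a median of −0.01. Irf8, a myeloid transcription factor, differed by −0.49 (SE 0.33) and Lyve1 by −0.35 (SE 0.23). Cd52 differed by −0.53 (SE 0.41) and the lipopolysaccharide co-receptor gene Cd14 by −0.09 (SE 0.13). Irf8 stood at −2.71 on mutant 1 and −1.82 on mutant 9, against −1.81 and −1.74 on wild types 3 and 4. Cd52 passed the filter through the wild-type arrays alone, so some difference was built into its selection. The median became −0.08, with 3 of 5 lower, when mutant 9 was left out, −0.21 without mutant 1, and −0.17, with 4 of 5 lower, without wild type 4. It was −0.14 with normexp, −0.22 with a filter on all 4 arrays, −0.21 with probes averaged per gene, and −0.17, with 15 of 22 lower, with no filter on dim probes. The macrophage label of the member set thus rests on few genes that these arrays could measure.

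Runx1 was the 1 progenitor gene of the set with a probe. The brighter of its 2 probes gave −1.87 and −1.68 in mutants 1 and 9 and −1.99 and −1.80 in wild types 3 and 4. The genotypes overlapped and the difference was 0.12 (SE 0.12). The dimmer probe was well above background on 3 arrays and differed by 0.10, and it too overlapped. Over all alternatives the Runx1 difference lay between 0.02 and 0.21, so a change beyond the spread of the samples was not seen in either direction.

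**Figure D3:**
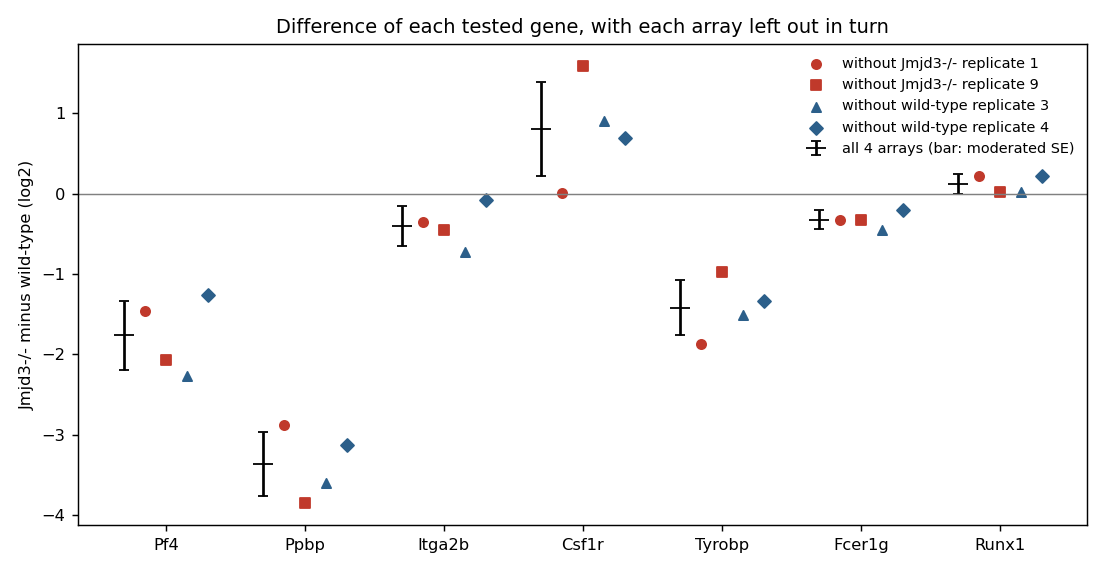
Difference between Jmjd3-/- and wild-type (log2, vertical axis) of the 7 tested genes with all 4 arrays (black, with the moderated SE) and with each array left out in turn (coloured points). Pf4 stays at or below −1.26 and Tyrobp at or below −0.97, Itga2b approaches 0 without wild-type replicate 4, and Csf1r approaches 0 without Jmjd3-/- replicate 1.

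Over the 7 tested members, 5 had a negative difference, all of them without overlap of the genotypes, and 2 a positive one, with a median of −0.40. Across all genes tested 23.7% were lower in Jmjd3-/- without overlap. Nothing is read from this count of members or from those that follow, because the contrast was used to choose the members. Ppbp and Tyrobp also passed the filter through the wild-type arrays alone. By limma 0 of the 7 passed over all genes, against 0.0368% of all genes, and 3 had an unadjusted p under 0.05, all lower, against 5.93% lower and 5.15% higher among all genes. Differences under −1 were found for Pf4, Ppbp and Tyrobp, and for 2.11% of all genes. The median ranged from −0.73 without wild-type replicate 3 to −0.20 without wild-type replicate 4.

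The ligands and partners of the members showed no common direction. Of 10 such genes 8 could be tested, with 4 higher, 4 lower and a median of −0.01. By limma 0 passed over all genes, and 3 had an unadjusted p under 0.05, against 11.1% of all genes. Among the ligands, Kitl, which encodes the ligand of Kit, differed by 0.12 (SE 0.14), Csf1 by −0.08 (SE 0.11), Il34 by 0.34 (SE 0.10), Cx3cl1, the ligand of Cx3cr1, by −0.23 (SE 0.15), and Thpo, the platelet growth factor, by 0.14 (SE 0.13). Cbfb, whose product pairs with Runx1, differed by 0.05 (SE 0.08). Syk, the kinase that Tyrobp and Fcer1g recruit, differed by −0.29 (SE 0.09, adjusted p = 0.419). Trem2 and Hcst, partners in the same pathway, were not well above background on any array.

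Relatives of Runx1 and of the receptor kinases Kit and Csf1r differed little. Runx3 differed by 0.08 (SE 0.14), Pdgfra by 0.12 (SE 0.12), Pdgfrb by 0.09 (SE 0.10) and Flt3 by −0.21 (SE 0.22), with 0 of these 4 past the threshold (limma; 0 also at an unadjusted p under 0.05). Runx2 was not well above background on any array.

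Other genes of megakaryocytes and platelets were described beside Pf4 and Ppbp. This list, like the other lists, was written with earlier results of these arrays known, so its counts are a description and no test. Of 20 tested genes, 17 had a negative difference and 3 a positive one, with a median of −0.42. In 12 the Jmjd3-/- arrays lay below both wild-type arrays without overlap, where 23.7% of all genes did, and in 1 they lay above, where 23% did. By limma 0 passed over all genes, and 8 had an unadjusted p under 0.05, all lower, against 5.93% of all genes. Gp5, which is among these 8, and Gp6 passed the filter through the wild-type arrays alone. A filter on all 4 arrays left 18 genes, 15 of them lower, and a median of −0.36, and with normexp the median of the 20 was −0.25. Clec1b, a platelet receptor that also guides the separation of blood and lymph vessels, differed by −0.93 (SE 0.14, adjusted p = 0.266). Treml1, a granule receptor, differed by −1.39 (SE 0.32) and Gp9 by −1.15 (SE 0.29).

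The differences were uneven within this list. The other genes of the von Willebrand factor receptor, of which Gp9 is part, were named after their values were seen. They differed by −1.32 (SE 0.36) for Gp1ba, −0.38 (SE 0.21) for Gp1bb and −1.60 (SE 0.44) for Gp5. Gp5 was well above background in wild-type alone and, by the ratio used for Ppbp, 2.36-fold lower in Jmjd3-/-. The transcription factor genes of the lineage, likewise named afterwards, differed less, with Fli1 at −0.34 (SE 0.09), Nfe2 at −0.33 (SE 0.26), Gata1 at −0.23 (SE 0.26), Zfpm1 at −0.22 (SE 0.08) and Gfi1b at −0.09 (SE 0.21). Most of these are also expressed in red cell precursors or endothelium. Vwf, shared with endothelium, differed by 0.46 (SE 0.24). Whether surface receptor genes and transcription factor genes differ as groups was not tested.

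**Figure D4:**
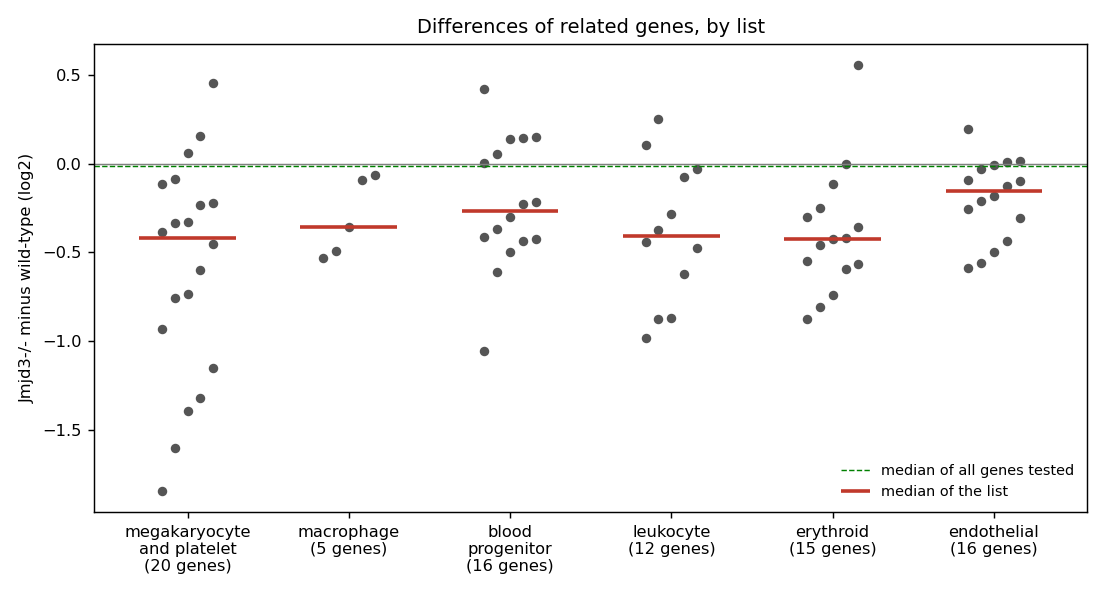
Difference between Jmjd3-/- and wild-type (log2, vertical axis) of each tested gene outside the member set, by list, with 1 point per gene. The red line is the median of the list and the dashed line the median of all genes tested, −0.01. The megakaryocyte and platelet list reaches furthest down, to −1.84 for Itgb3, and of the 6 lists plotted the endothelial list has the median nearest to that of all genes, −0.15.

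Blood progenitor genes were mixed. Of 16 tested genes 10 had a negative and 6 a positive difference, with a median of −0.26. By limma 0 passed over all genes, and 4 had an unadjusted p under 0.05, against 11.1% of all genes. Of these 4, 3 were lower and 1 higher. Mecom, a regulator of blood stem cells, differed by −0.61 (SE 0.12), Gfi1 by −1.06 (SE 0.27) and Cd34, shared with endothelium, by −0.50 (SE 0.17). Ly6a, the stem cell antigen Sca-1 gene, differed by 0.42 (SE 0.12). The arrays of these 4 genes did not overlap between the genotypes, and in all 9 of the 16 genes were lower without overlap and 3 higher, where 23.7% and 23% of all genes were. The median was −0.16 without mutant 1, −0.41 without wild type 3 and −0.18 without wild type 4.

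General white blood cell genes had a median of −0.41 over 12 tested genes, with 10 lower and 2 higher, where 53.1% of all genes were lower. By limma 0 passed, and 2 had an unadjusted p under 0.05, against 11.1% of all genes. Of the 12, 8 were lower without mutant 9 (median −0.33) and 8 without wild type 4 (−0.29). Without mutant 1, 11 were lower (−0.35), and without wild type 3, 10 (−0.44). The median with all 4 arrays was −0.28 with a filter on all 4 arrays (7 of 9 lower), −0.18 with no filter on dim probes (10 of 16 lower) and −0.19 with normexp. Rac2, a small GTPase of blood cells, differed by −0.88 (SE 0.19), Lcp1 by −0.44 (SE 0.12), Vav1 by −0.98 (SE 0.36) and Hcls1 by −0.28 (SE 0.11). Rac2, Vav1 and Laptm5, which differed by −0.87 (SE 0.51), were each well above background on 1 of 2 Jmjd3-/- arrays. All of these passed the filter through the wild-type arrays alone, so some difference was built into their selection. Cd53, Cd48 and Cd37 were not well above background on any array. Among granulocyte and mast cell genes, Mpo differed by −0.23 (SE 0.18) and Prtn3 by 0.06 (SE 0.28), and 8 of 10 could not be tested.

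Most markers of red cells and vessels also had negative differences, although by limma 0 genes of either list passed over all genes (3 of 15 red cell and 6 of 16 endothelial genes at an unadjusted p under 0.05, against 11.1% of all genes). Of all genes tested 53.1% had a negative difference. The summed normalised signal of 15 red cell genes, relative to the 75th percentile, was 369 and 521 in mutants 1 and 9 and 564 and 718 in wild types 3 and 4, with 14 of the 15 lower and a median of −0.42. That median was −0.20 without mutant 1, −0.68 without mutant 9, −0.72 without wild type 3 and −0.19 without wild type 4. All 15 were well above background on every array, and none of the defining globin genes was at background. Because the sum adds signals without logs, it is carried by the brightest genes, the globins. On mutant 1 the signal of Hbb-bh1 was 124145, against 2009 for Alas2. The red cell sums and the Pf4 signals had the same order over the 4 arrays. By the median over the 15 genes, relative to the wild-type mean, the order differed, with −0.23 on wild type 3 and −0.20 on mutant 9. The sum of 16 endothelial genes was 45.1 and 48.2 in Jmjd3-/- and 54.1 and 57.4 in wild-type. Of its brightest genes, Cd34 differed by −0.50 and Egfl7 by −0.01. In this list 13 of 16 were lower, with a median of −0.15, or 10 of 16 lower without mutant 9 and 11 of 16 without wild type 4. The part of red cell or vessel content in the platelet result was not tested.

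The wild-type arrays differed from each other in these lists. The median difference of wild-type replicate 4 from replicate 3 was 0.54 for the megakaryocyte and platelet list and 0.46 for the red cell list, larger in size than the genotype differences, both −0.42, and it was 0.05 for the endothelial list. Relative to the wild-type mean, the megakaryocyte and platelet median was −0.59 and −0.38 on mutants 1 and 9 and −0.27 on wild-type replicate 3. It was −0.22 without wild-type replicate 4 and −0.63 without wild-type replicate 3. Pf4 had a difference of −1.26 when wild-type replicate 4 was left out.

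**Figure D5:**
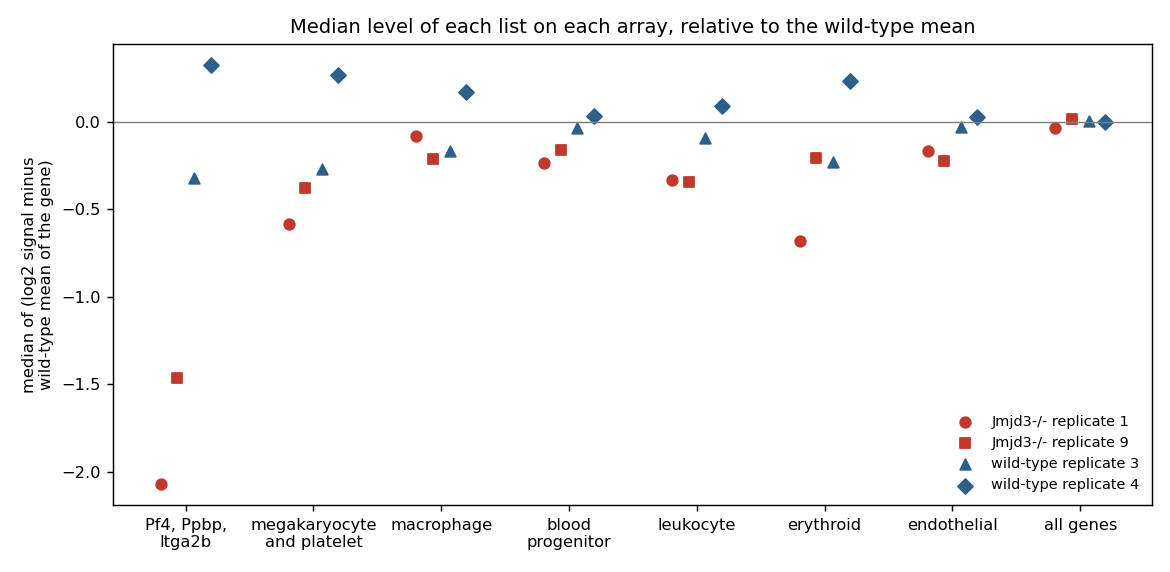
Median over each list of the log2 signal minus the wild-type mean of the gene (vertical axis), with 1 point per array; the 2 wild-type points are symmetric about 0 by construction. The 3 platelet members lie at −2.07 and −1.46 on the Jmjd3-/- arrays, and in the red cell list wild-type replicate 3 (−0.23) lies beside Jmjd3-/- replicate 9 (−0.20).

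Germ cells and melanoblasts also express Kit, but Kit had no probe, so no measured value here could reflect Kit in these cells. Genes of both cell types are given as a description only. Of 6 tested germ cell genes 4 were higher and 2 lower, with a median of 0.09, and among them Tfap2c differed by −1.05 (SE 0.35), Dnd1 by 0.16 (SE 0.09), Prdm1 by −0.06 (SE 0.09) and Ddx4 by 0.36 (SE 0.52). Of 4 tested melanoblast genes, Pmel differed by 0.75 (SE 0.16), Dct by −0.52 (SE 0.13), Mitf by −0.94 (SE 0.52) and Sox10 by −1.24 (SE 0.80). Sox10 stood at −2.53 on mutant 1 and −0.35 on mutant 9, against −0.18 and −0.23 on wild types 3 and 4. None of the germ cell and melanoblast genes passed (limma; 3 at an unadjusted p under 0.05, against 11.1% of all genes). The samples include no anterior part, so their posterior origin was not tested. A list of 12 axial genes, such as Cdx1, Cdx2, Wnt3a and Hoxd10, was well above background on every array. Of these 10 were higher in Jmjd3-/-, by 0.79 (SE 0.11) for Cdx1, 1.45 (SE 0.23) for Cdx2 and 1.42 (SE 0.25) for Wnt3a, while Hoxd10 differed by −0.65 (SE 0.07), and 0 passed over all genes (limma; 9 of 12 at an unadjusted p under 0.05, against 11.1% of all genes).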

How the data were processed

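Per the submitters' processing notes and the file headers, the deposited spot intensity came from 1-colour scans read with Agilent Feature Extraction 10.7.3.1, as the processed signal in arbitrary units; scaling between arrays was left to later steps. The authors also deposited a table of log2 values whose scale no label states. Its values matched the log2 processed signal minus the 75th percentile of each array and minus the wild-type mean, with r of 0.995 to 0.997 across probes, which gives its scale, centring and direction. Its medians were −0.02 (mutant 1), 0.05 (mutant 9), 0.02 (wild type 3) and −0.02 (wild type 4). Flags such as well above background, written by the same software, were deposited with the intensities.

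Of 45018 spots, 1639 control spots were left out. Repeat spots were averaged on the log2 scale, which left 41174 probes. Accessions were matched to the RefSeq table of GRCm38.p6 (26690 probes by accession, 23 by synonym, 14461 unnamed), which served for names and gene order only, since the headers name another build. The brightest probe stood for a gene, and 13582 genes were tested. Genotypes were tested in R 4.3.3 with limma 3.58.1 (lmFit, eBayes, Benjamini-Hochberg over all genes tested, threshold 0.05), and SE is the moderated standard error with n = 2 per genotype. The fit was tested on simulated data. The members and lists were chosen with earlier results of these data known. Named genes are all members, all ligands, partners, flanking chemokines and relatives, and up to 4 genes by p of each other list; any further gene was named after its values were seen. Alternatives covered scaling, background, filters, probes, outlier spots, the deposited table and each array left out. For normexp, median spot signals were used, since the files used here hold no mean signal. Its offset of 50 shrinks the differences of dim genes and of lists that hold many of them.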

Additional observations from a re-analysis of the deposited data

How the results depend on the processing

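The signs of the 7 tested members were the same under every alternative in which each was tested. The smallest differences were 0.01 for Csf1r and 0.02 for Runx1, and the probes of Csf1r give no direction. Of the 7, 5 were lower, or 3 of 5 with a filter on all 4 arrays, which leaves out Ppbp and Tyrobp, and 7 of 9 without a filter, which adds the 2 genes below background. The members' median lay between −0.73 and −0.20 over the arrays left out and was −0.24 with normexp. The counts over all genes, 3 higher and 2 lower, were less stable. With quantile normalisation, without a filter and with a filter on all 4 arrays they were 0 and 0 (limma; 1466, 1621 and 1415 genes at an unadjusted p under 0.05). With normexp they were 1 and 1. The lower count was 4 with median scaling, 4 without outlier spots and 1 with probes averaged per gene. Leaving out an array gave 0 to 47 higher and 0 to 120 lower: 47 and 120 without Jmjd3-/- replicate 9, and 0 and 0 without Jmjd3-/- replicate 1, wild-type replicate 3 or wild-type replicate 4 (1940, 643 and 673 at an unadjusted p under 0.05). The cause was not tested; a genotype left with 1 array is assumed to vary like the other. No paired analysis was possible because the genotypes share no sample numbers. Low signal over background limits Ppbp, Tyrobp, Csf1r, Cx3cr1 and Ptprc most.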
